A study of Gossypium barbadense and Gossypium hirsutum with 8 samples.

Results

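The course of gene expression in developing fibers of Gossypium barbadense, the extra-long-staple cotton, was followed through 4 libraries, 1 each at 5, 10, 15 and 20 days post anthesis (DPA). They were chosen by species, as 4 of the 8 libraries of a series whose other 4 come from Gossypium hirsutum, upland cotton, at the same stages. Total RNA of fiber was sequenced on an Illumina platform. The last library is labelled 20 DPA in its source and stage fields, while its title carries the number 25, so the length of the last step is uncertain. The cultivar, the number of plants per library and any treatment are given in none of the sources used here. With 1 library per stage, a difference between stages has no replicate check, and no p-value is given.

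A cotton fiber is a single cell that grows out of the seed coat. It first elongates within a thin, extensible primary wall, a phase that draws on wall-loosening proteins, membrane lipids and a flexible cytoskeleton. It then passes through a transition and deposits a secondary wall made almost wholly of cellulose, and the transcripts of wall synthesis come to dominate the cell. Cultivated tetraploid cottons carry an A and a D subgenome, so that most genes exist as 2 similar copies. The identifiers used here give the subgenome and chromosome (Gh_A09G1166 lies on A09, and Sca identifiers lie on unplaced scaffolds). They are paired with no gene name: 0 of 59006 matched the RefSeq table of 74561 G. barbadense genes. The roles of single genes and the markers of fiber or of other seed tissues could therefore not be given, and the tissue label could not be checked against markers. Libraries of both species are listed under the same identifiers, and the species of the gene models behind them is not stated. How well G. barbadense reads matched these models was not tested.

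Values are scaled RPKM: the deposited RPKM (read number per kilobase of gene, relative to library size) divided by the sum of its library and multiplied by 300000, so that each library sums to 300000. A scaled value is thus a share of the measured transcript pool per gene length, and it falls when other genes take more of the pool. The deposited sums were 258680, 503585, 380030 and 324181 RPKM at 5, 10, 15 and 20 DPA. In bulk fiber, fewer cells of a type and less RNA per cell cannot be told apart. Steps were read on log2(scaled RPKM + 1) in the 20920 genes that averaged 1 scaled RPKM or more over the 4 libraries. A gene was counted as higher or lower when it differed at least 4-fold on that scale and reached 5 scaled RPKM in the higher library. That minimum corresponded to between 24.6 reads (5 DPA) and 47.0 reads (10 DPA) for a gene of median length among the 11703 whose RPKM per read could be worked out.

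The transcript pool narrowed at each successive stage. At 5 DPA the 1100 most abundant genes together held 50% of the summed RPKM. The number needed for that share then went to 793 and 363, and at 20 DPA to 119. The single most abundant gene took 1.26% of the pool at the first stage, 1.47% and 2.99% at the next stages and 4.30% at the last. The 20 most abundant genes took 9.98%, 11.5%, 21.4% and 33.2%. In the opposite direction, the share of the 59006 listed genes that stood at 0 was 22.1% at 5 DPA, then 20.4% and 26.6%, and 57.8% at 20 DPA. The 20 DPA library thus lists fewest genes above 0. The library size used in its scaling was, from the steps between low values, 1.12 times that of the 5 DPA library. How many reads were counted on genes is not given. Whether depth bears on the values listed at 0 was not tested.

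**Figure D1:**
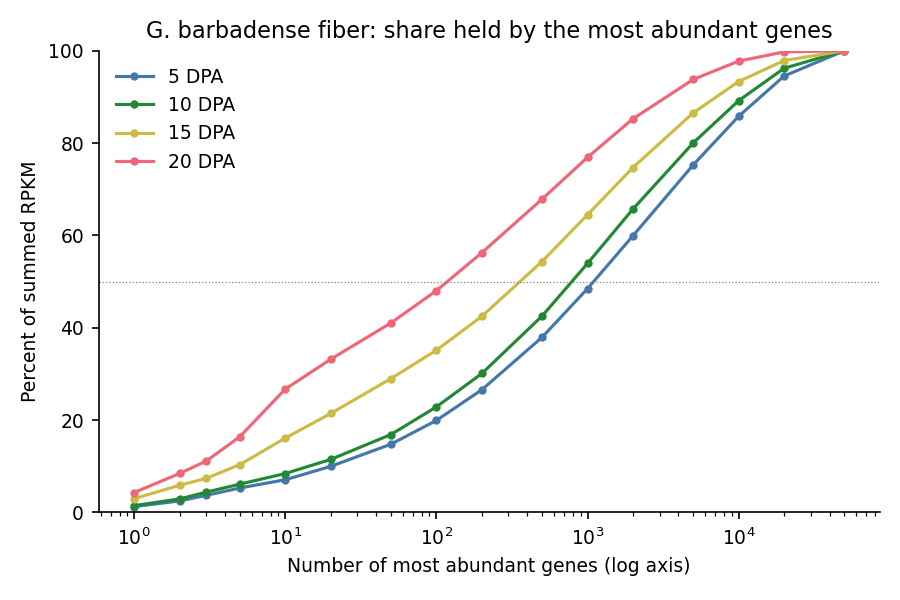
Percent of the summed RPKM (y axis) held by the most abundant genes of each G. barbadense library (x axis, number of genes on a log axis), 1 line per stage. The 20 most abundant genes hold 9.98% at 5 DPA and 33.2% at 20 DPA, and the dotted line marks 50%.

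The makeup of the pool shifted most in the last step and least in the middle one. Between 5 and 10 DPA 32.9% of the summed RPKM passed to other genes, between 10 and 15 DPA 26.8%, and between 15 and 20 DPA 42.9% (the summed gain, in percent of the pool, of the genes that gained). Across the whole course, from 5 to 20 DPA, 57.9% was replaced. The turnover between 10 and 20 DPA (54.4%) was close to that of the whole course, and between 5 and 15 DPA it was 41.1%. The median absolute change of a gene ordered the steps the same way, at 0.68, 0.57 and 0.88 on the log2 scale. Across genes, which are not independent replicates, Spearman's rho between neighbouring stages was 0.58, 0.77 and 0.49, as a description.

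In shares of the pool, gains were made by few genes and losses by many. The shares have a fixed sum, so a gene loses share when others gain, even at an unchanged amount. With median-of-ratios factors the median gene changed by -0.03 on the log2 scale from 10 to 15 DPA. How much of the loss is of this kind was not tested. Between 10 and 15 DPA 38 genes made 50% of the 26.8 percentage points gained, while 995 genes made 50% of the loss. Between 15 and 20 DPA the numbers were 40 and 444. In the first step they were 347 and 792, so the early gains were spread over more genes. The largest single gainer was Gh_D05G1514 in the first and the second step (0.57 and 2.11 percentage points) and Gh_A06G0811 in the last step (3.56 points). The largest losers were Gh_D04G0335 (0.42 points, 5 to 10 DPA), Gh_A10G1331 (0.24 points, 10 to 15 DPA) and Gh_A09G2303 (0.79 points, 15 to 20 DPA). The 10 largest losers made 6.82%, 4.67% and 10.3% of the loss in the 3 steps, against 10.2%, 33.4% and 34.6% of the gain for the 10 largest gainers.

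**Figure D2:**
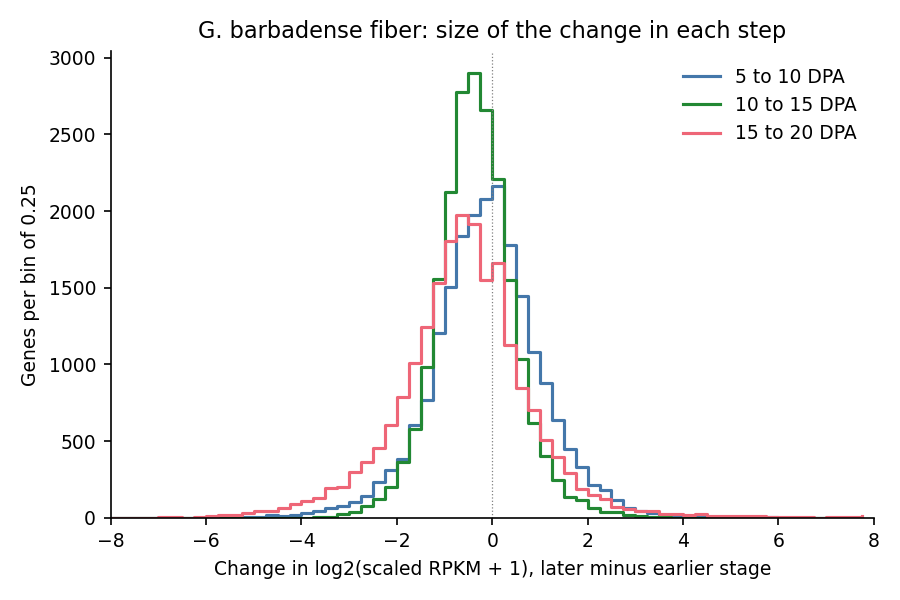
Number of genes (y axis, bins of 0.25) by change in log2(scaled RPKM + 1) between neighbouring stages (x axis, values beyond 8 placed in the end bins), for 20920 genes in G. barbadense. The 15 to 20 DPA curve is widest, with a long tail of lower genes, and the 10 to 15 DPA curve is narrowest.

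In counts of genes, 590 were at least 4-fold higher and 956 lower at 10 than at 5 DPA (2.82% and 4.57% of the 20920). From 10 to 15 DPA 153 were higher and 414 lower (0.731% and 1.98%). From 15 to 20 DPA 624 were higher and 2059 lower (2.98% and 9.84%). The median gene itself changed by -0.12, -0.36 and -0.58 in the 3 steps. With the RPKM as deposited the medians were 0.62, -0.71 and -0.74, and with median-of-ratios factors 0.13, -0.03 and -0.40, so directions depend on the scaling. The counts became 2148 higher and 428 lower, 142 and 1177, and 578 and 2674 in the deposited values. With median-of-ratios factors they were 690 and 454, 269 and 165, and 1069 and 1937. Under all 3 scalings the last step held the most genes past 4-fold and the middle step the fewest, and the last step had more lower than higher genes. The excess of lower genes in the first step turned into an excess of higher genes under both other scalings, and that of the middle step under median-of-ratios factors.

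**Figure D3:**
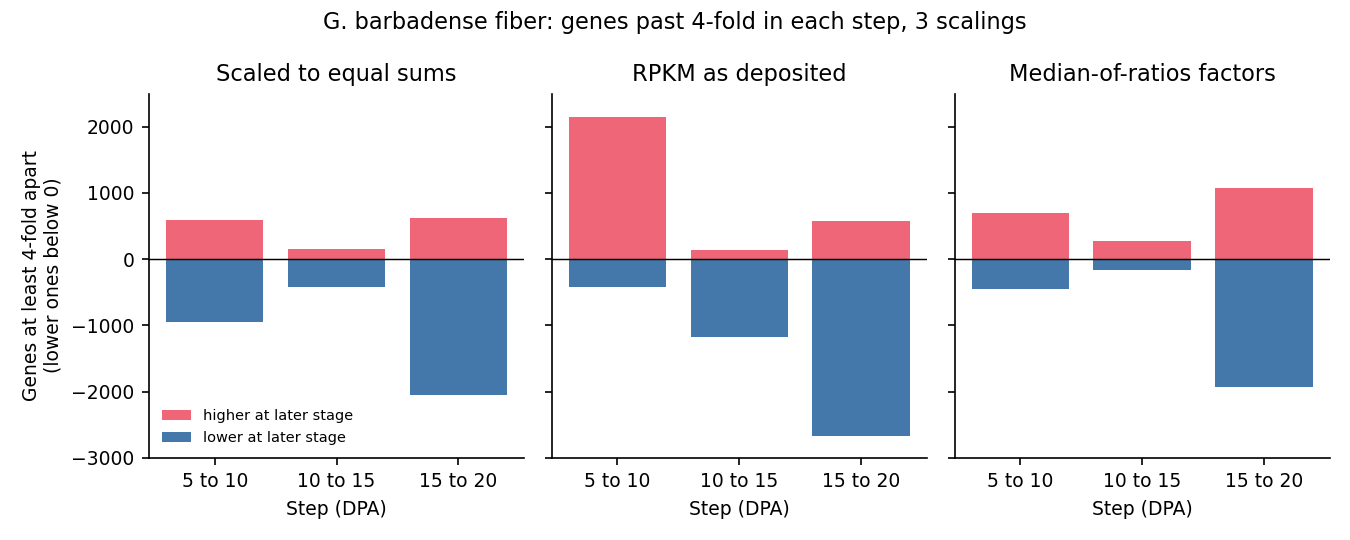
Number of genes at least 4-fold higher (above 0) or lower (below 0) at the later stage of each step in G. barbadense, for 3 scalings of the libraries. The last step holds the most genes under each scaling, and its lower genes number 2059, 2674 and 1937.

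The genes that passed 4-fold under all 3 scalings give the changes that rest least on that choice. They numbered 526 higher and 351 lower for 5 to 10 DPA, 118 and 165 for 10 to 15 DPA, and 563 and 1826 for 15 to 20 DPA. These were 89.2% and 36.7% of the first step's genes as scaled here, 77.1% and 39.9% of the middle step's, and 90.2% and 88.7% of the last step's.

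The first step was led by genes that appeared from values listed at 0. Gh_D13G0580 was listed at 0 at 5 DPA and stood at 160.2, 152 and 11.6 scaled RPKM at 10, 15 and 20 DPA. It was thus high in the middle libraries and lower again in the last. Gh_D04G0445 was listed at 0 at 5 DPA, stood at 66.4 and 32.6 scaled RPKM at 10 and 15 DPA and was again listed at 0 at 20 DPA. Between 5 and 10 DPA 85 genes went from a listed 0 to at least 5 scaled RPKM, and 106 went the other way. Gh_D05G0600 had the largest fall, from 168 to 0.83 scaled RPKM, with 1.65 and 6.22 scaled RPKM at 15 and 20 DPA. Gh_Sca027989G01 stood at 102 scaled RPKM at 5 DPA, fell to 0.87 at 10 DPA, and then stood at 42.1 and 20.1. It was low in the 10 DPA library alone, and for that reason is also among the largest rises of the next step.

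In the middle step the largest rise was that of Gh_D08G0181, from 6.07 and 5.90 scaled RPKM at 5 and 10 DPA to 565 at 15 DPA, followed by 249 at 20 DPA. The largest falls were those of Gh_Sca201838G01 and Gh_D07G2461. Gh_Sca201838G01 stood at 35.9 and 25.7 scaled RPKM at 5 and 10 DPA, was listed at 0 at 15 DPA and stood at 1.34 at 20 DPA. Gh_D07G2461 was among the 20 most abundant genes at 5 DPA, with 846 scaled RPKM, and still stood at 539 at 10 DPA. It was at 29.9 scaled RPKM at 15 DPA and 13.7 at 20 DPA. It was thus high in both early libraries and low in both later ones. Few genes crossed a listed 0 in this step, 13 in each direction.

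The last step brought both the largest rises and the largest falls of the course. Gh_A02G0316 was listed at 0 at 5 and 10 DPA, stood at 0.21 scaled RPKM at 15 DPA and reached 1968 at 20 DPA, rank 15 in that library. Gh_D08G0544 stood at 0.24, 0.13 and 0 scaled RPKM at 5, 10 and 15 DPA and at 1192 at 20 DPA. Both were near 0 in the earlier libraries and abundant in the last. In the other direction, Gh_A11G2719 stood at 40.9, 620.3 and 354 scaled RPKM at 5, 10 and 15 DPA and was listed at 0 at 20 DPA. Gh_A10G2323 stood at 83.9, 883 and 628 scaled RPKM and then at 1.03. It had been the 16th most abundant gene at 10 DPA and the 39th at 15 DPA. From at least 5 scaled RPKM at 15 DPA, 685 genes went to a listed 0 at 20 DPA, and 85 genes went the other way.

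Among genes at least 4-fold apart between 5 and 20 DPA, the largest step was most often the last. Of the 20920 genes, 881 were at least 4-fold higher and 4171 lower at 20 than at 5 DPA (4.21% and 19.9%). They were chosen by scaled RPKM on the 5 and 20 DPA libraries, which enter the first and last steps but not the middle one. Among the 881 higher genes the largest rise was the last step in 579 (65.7%), the first in 198 (22.5%) and the middle in 104 (11.8%). Their median scaled RPKM was 1.33, 2.83, 4.48 and 24.2 at the 4 stages, and together they went from 3.89% of the pool at 5 DPA through 7.93% and 20.0% to 48.0% at 20 DPA. The 4171 lower genes had their largest fall in the last step in 2252 cases (54.0%) and in the first in 1291 (31.0%). They held 34.8%, 28.3%, 19% and 2.49% of the pool. A rise in every step was seen in 364 of the 881 (41.3%) and a fall in every step in 2051 of the 4171 (49.2%). Of all 20920 genes, 731 (3.49%) rose and 4932 (23.6%) fell in every step. The 881 and the 4171 were chosen for a net change in that direction, so this is not a like comparison. Steps of any size count here, by scaled RPKM only.

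Genes that came up in the first step were often lost in the last. These steps share no library. Of the 590 genes at least 4-fold higher at 10 than at 5 DPA, 270 were at least 4-fold lower at 20 than at 15 DPA (45.8% of the early risers and 13.1% of the 2059 late fallers), beside 9.84% of all 20920 genes. A further 11 of the 590 rose again in the last step (1.86%, and 1.76% of the 624 late risers), beside 2.98% of all genes. Of the 956 genes lower in the first step, 38 were higher in the last (3.97%) and 35 were lower (3.66%). The shares over all 20920 genes are not a like comparison. A late faller needed 5 scaled RPKM or more at 15 DPA, which 6212 genes reached. All 2059 late fallers are therefore among those 6212 genes, a nearer comparison than all 20920. Early risers were chosen for that level at 10 DPA, and early fallers for a fall by 10 DPA. How much of the difference rests on this minimum was not tested.

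The stage at which a gene stood highest depended on the scaling. By scaled RPKM 9305 genes (44.5%) were highest at 5 DPA and 6146 (29.4%) at 10 DPA, while 2606 (12.5%) and 2863 (13.7%) were highest at 15 and 20 DPA. With the RPKM as deposited 13399 were highest at 10 DPA and 4861 at 5 DPA, and with median-of-ratios factors the 4 stages held 4480, 4637, 4392 and 5605 genes. A gene counted as having a single-stage peak when it reached 5 scaled RPKM at that stage and stood at least 4-fold above each of the other stages. There were 565 such genes at 5 DPA (2.70%) and 63 at 10 DPA (0.301%). At 15 DPA there were 24 (0.115%), and at 20 DPA 418 (2.0%). The stages 5 and 20 DPA are the ends of the course, so a gene that only fell or only rose can be counted there. A count at 10 or 15 DPA needs lower values on both sides, so the counts at the ends and in the middle are not alike. Just inside the limit, between 4-fold and 4.5-fold, lay 149, 16, 8 and 54 genes, and just outside it, between 3.5-fold and 4-fold, 178, 35, 10 and 57. Under all 3 scalings 143, 29, 16 and 364 genes kept a peak at the same single stage. At least 16-fold above every other stage stood 27 genes at 5 DPA, 109 at 20 DPA and 0 at 10 or 15 DPA.

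The 5 DPA peak was led by Gh_D04G0825 and Gh_Sca058603G01. Gh_D04G0825 stood at 929 scaled RPKM at 5 DPA, rank 12 in that library, and at 60.7, 87.6 and 56.3 at 10, 15 and 20 DPA. Gh_Sca058603G01 stood at 544 scaled RPKM at 5 DPA and between 8.64 and 19 afterwards. Both fell in the first step and stayed well below their 5 DPA level. Gh_D04G0825 still ranked 828, 474 and 705 in the later libraries. The 565 genes had a median of 15.1 scaled RPKM at 5 DPA and 1.32, 0.89 and 0.42 at the later stages. Together they took 6.19% of the pool at 5 DPA and then 0.63%, 0.49% and 0.39%.

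Single-stage peaks at 10 and 15 DPA were fewer by scaled RPKM. In the deposited RPKM 323 genes had one at 10 DPA, more than the 224 at 5 DPA, and 22 at 15 DPA. Gh_A07G2241 led those of 10 DPA, with 59.5, 495, 38.4 and 4.11 scaled RPKM at the 4 stages, followed by Gh_Sca066370G01 with 30.1, 166, 29.4 and a listed 0. At 15 DPA Gh_A05G0249 stood at 1096 scaled RPKM, after 1.39 and 118 at 5 and 10 DPA and before 25.6 at 20 DPA. It was the 22nd most abundant gene of that library. Gh_D07G1579 went from a listed 0 at 5 DPA through 27.0 to 126 scaled RPKM at 15 DPA and then to 2.04. The 63 and 24 genes took 0.78% and 0.68% of the pool at their own peak. Gh_A05G0249 alone took 0.37% at 15 DPA.

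The 20 DPA peak was led by Gh_A06G0811 and Gh_D06G0940, which ranked 1 and 2 in that library. Gh_A06G0811 stood at 1131, 1296, 2246 and 12913 scaled RPKM at the 4 stages, and Gh_D06G0940 at 1048, 1210.1, 2315 and 12429. They were already among the 20 most abundant genes at 5 DPA, and rose in every step. The 418 genes had medians of 0.78, 0.74, 0.94 and 31.3 scaled RPKM. Their part of the pool was 2.02%, 1.88% and 3.74% in the earlier libraries and 30.2% at 20 DPA. A few identifiers made much of that last share. Gh_A06G0811, Gh_D06G0940, Gh_A03G1623 and Gh_D02G2038 took 4.30%, 4.14%, 2.64% and 2.56% of the pool at 20 DPA. Of the 418 genes, 36 were listed at 0 in all 3 earlier libraries.

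Many genes were high over more than 1 stage and then fell together. This grouping was chosen after the values were seen, and a list holds genes whose lowest value inside the named stages was at least 5 scaled RPKM and at least 4-fold above the highest value outside them. The largest such list, 1232 genes (5.89%), was high at 5, 10 and 15 DPA and low at 20 DPA. It held 14.0%, 19.4% and 13.8% of the pool at the first 3 stages and 0.74% at 20 DPA. By mean level its leading genes were Gh_A10G1331 and Gh_D09G2051. Gh_A10G1331 stood at 642, 1275, 565 and 64.1 scaled RPKM at the 4 stages. Gh_D09G2051 rose through 174 and 534 to 1258 scaled RPKM at 15 DPA and then stood at 40.0.

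A further 148 genes (0.707%) were high at 10 and 15 DPA and low at 5 and 20 DPA, among them Gh_D11G2930 with 98.9, 507, 809.7 and 15.5 scaled RPKM. These 148 genes took 0.32% of the pool at 5 DPA, 2.99% and 2.93% at 10 and 15 DPA and 0.09% at 20 DPA. Another 143 genes (0.684%) were high at 5 and 10 DPA and low later. They were led by Gh_D07G2461, described above, and Gh_Sca286293G01, which stood at 268 and 244 scaled RPKM and then at 38.9 and 5.32. Late lists were short by comparison. At 15 and 20 DPA 35 genes (0.167%) were high, and at 10, 15 and 20 DPA 78 genes (0.373%). Among the 35, Gh_Sca131739G01 stood at 311, 1065, 4447 and 7436 scaled RPKM, and Gh_A04G0412 at 13.9, 14.5, 66.9 and 2806. Lists may share genes, since Gh_A05G0249 also met the limit for 10, 15 and 20 DPA. Under all 3 scalings 706 of the 1232, 119 of the 148, 34 of the 143, 28 of the 35 and 74 of the 78 genes met the same limit.

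The lists were then looked up in the 4 G. hirsutum libraries, which had no part in choosing them and were scaled in the same way. Of the 418 genes with a 20 DPA peak, 379 (90.7%) were also highest at 20 DPA in G. hirsutum, beside 13.2% of all 20920 genes. Of the 565 genes with a 5 DPA peak, 289 (51.2%) were highest at 5 DPA there, beside 37.0% of all. For 10 DPA the count was 30 of 63 (47.6%, beside 31.0%) and for 15 DPA 9 of 24 (37.5%, beside 17.5%). Of these 24 genes, 10 (41.7%, beside 31.0%) were highest at 10 DPA in G. hirsutum. Among the peak genes shared by all 3 scalings of G. barbadense, the shares were 68.5%, 58.6%, 37.5% and 94.5% in order of stage. A peak of the same 4-fold size was seen in G. hirsutum for 228 of the 418 late genes (54.5%, beside 1.55% of all genes), 62 of the 565 early ones (11%, beside 1.70%), 2 of the 63 at 10 DPA (3.17%, beside 0.688%) and 0 of the 24 at 15 DPA (beside 0.0717%).

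Of the 148 genes high at 10 and 15 DPA, 87 were highest at 1 of these stages in G. hirsutum too (58.8%, beside 48.5% of all genes). Their median there was 5.45, 7.18, 0.94 and 0.91 scaled RPKM at the 4 stages, against 1.37, 20.1, 18.5 and 0 in G. barbadense. Of these genes 2 met the same limit in G. hirsutum (1.35%, beside 0.124% of all genes). The 1232 genes high until 15 DPA stood at medians of 6.49, 9.01, 1.70 and 1.04 in G. hirsutum, against 17.3, 22.2, 15.2 and 0.57. Of the 1232, 1213 were highest at 5, 10 or 15 DPA there (98.5%, beside 85.6% of all genes), and 71 met the same limit (5.76%, beside 1.29%). In both lists the G. hirsutum median was already low at 15 DPA. Their high 15 DPA value in G. barbadense chose these genes, so this difference between the species is a description, and it was not tested.

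**Figure D4:**
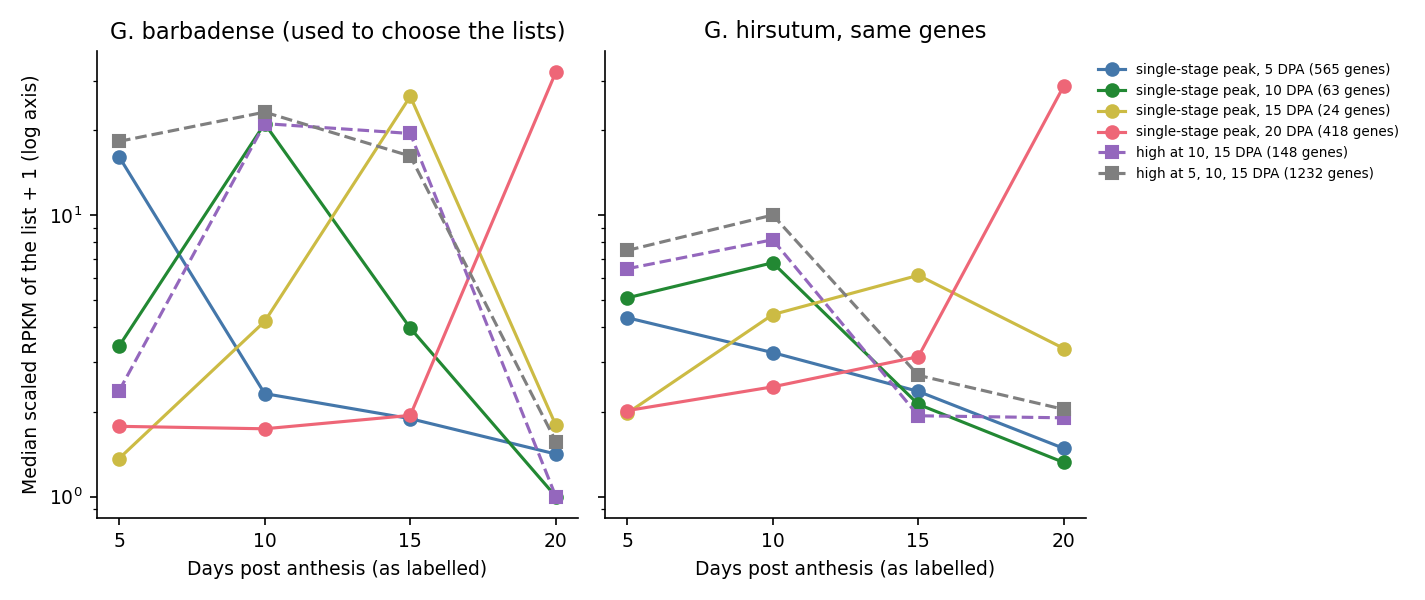
Median scaled RPKM plus 1 (y axis, log axis) of 6 gene lists at each labelled stage (x axis), in the G. barbadense libraries that chose the lists (left) and in G. hirsutum (right), 1 library per point. The 20 DPA list has medians of 31.3 and 27.8 at 20 DPA, while the list high at 10 and 15 DPA stands at 18.5 and 0.94 at 15 DPA.

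No peak list lay on 1 subgenome. By identifier 47.0% of the 20920 genes belonged to the A subgenome, 48.8% to the D subgenome and 4.20% to scaffolds. The 5 DPA peak genes were divided as 266 A, 267 D and 32 scaffold identifiers, and the 20 DPA peak genes as 187, 216 and 15. At 10 DPA the numbers were 25, 32 and 6, and at 15 DPA 8, 15 and 1. The A share of the pool was 45.6%, 46.0%, 45.2% and 44.7% at the 4 stages and the D share 47.2%, 47.2%, 47.3% and 47.4%. The listed division between the subgenomes thus stayed nearly as it was. It is uncertain, since how reads that match both copies of a gene were counted is not stated. Some neighbours on a chromosome shared a peak. Where a gene with a 20 DPA peak was followed by the next identifier number among the genes kept, that neighbour had a 20 DPA peak in 11 of 144 cases (7.64%, beside 1.72% of all such neighbours). For 5 DPA it was 10 of 184 (5.43%, beside 2.58%), for 10 DPA 0 of 22 (beside 0.312%) and for 15 DPA 2 of 10 (20%, beside 0.178%).

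The most abundant genes replaced each other only in part. The lists of the 20 most abundant genes at the 4 stages held 39 genes in all, of which 21 were in 1 list, 2 in 2 lists, 9 in 3 lists and 7 in all 4. From 5 to 10 DPA 11 of the 20 stayed, from 10 to 15 DPA 13 and from 15 to 20 DPA 13. Between 5 and 20 DPA 10 were shared. The 7 genes in all 4 lists took 5.04% of the pool at the first stage, then 6.96% and 11.9%, and 19% at the last. At 20 DPA they thus made 19% of the pool, out of the 33.2% held by the 20 leading genes. Genes that entered the list at 20 DPA came from farther down, with a median rank of 152 at 15 DPA, against 60 for those that entered at 10 DPA and 27 for those that entered at 15 DPA.

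Gh_A09G1166, Gh_D09G1172 and Gh_Sca222153G01 led at 5 and 10 DPA, and as scaled here their highest values were 1.45, 1.40 and 1.42 times their lowest. Gh_A09G1166 stood at 3640.4, 4416, 4497 and 5285 scaled RPKM at the 4 stages. Gh_D09G1172 stood at 3782, 4379, 4467 and 5292, and Gh_Sca222153G01 at 3683, 4383, 4428 and 5248. Their ranks nevertheless slipped from 3, 1 and 2 at 5 DPA to 9, 8 and 10 at 20 DPA, as other genes rose above them. Their course depended on the scaling. As deposited, all 3 were highest at 10 DPA instead, at 7412, 7351 and 7357 RPKM, after 3139, 3261 and 3176 RPKM at 5 DPA. With median-of-ratios factors Gh_A09G1166 rose through 2232, 3459 and 4925 to 7972.

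The genes that passed them first were Gh_D05G1514 and Gh_A05G1347. Gh_D05G1514 stood at 939 and 2639.6 scaled RPKM at 5 and 10 DPA, at 8956 at 15 DPA, where it ranked 1, and at 8051 at 20 DPA. Gh_A05G1347 followed it at 885, 2558, 8688 and 7908 scaled RPKM. Both were highest at 15 DPA as scaled and as deposited, but at 20 DPA with median-of-ratios factors. Gh_Sca131739G01 rose from rank 73 at 5 DPA to rank 14, 5 and 7. Gh_A06G0811 and Gh_D06G0940 ranked 7 and 8 at 5 DPA, and from ranks 11 and 10 at 15 DPA they moved to 1 and 2. Gh_A03G1623 stood at 846, 581, 1780 and 7909 scaled RPKM and moved from rank 18 to rank 4. The lead thus passed from the Gh_A09G1166 group through Gh_D05G1514 to Gh_A06G0811.

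Other early leaders left the list. Gh_D04G0335 stood at 2441 scaled RPKM at 5 DPA, rank 4, and then at 1189, 1378 and 408, rank 74 at 20 DPA. Gh_A05G3272 ran beside it at 2324, 1120.4, 1313 and 409 scaled RPKM. With median-of-ratios factors Gh_D04G0335 stood at 1497, 932, 1509 and 615, and Gh_A05G3272 at 1425, 878, 1439 and 617. Both were thus lower at 10 than at 5 DPA and lowest at 20 DPA under this scaling too, but their highest stage was 15 DPA. Of the 39 genes, 7 were highest at 5 DPA and 4 at 10 DPA, while 12 and 16 were highest at the later stages.

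**Figure D5:**
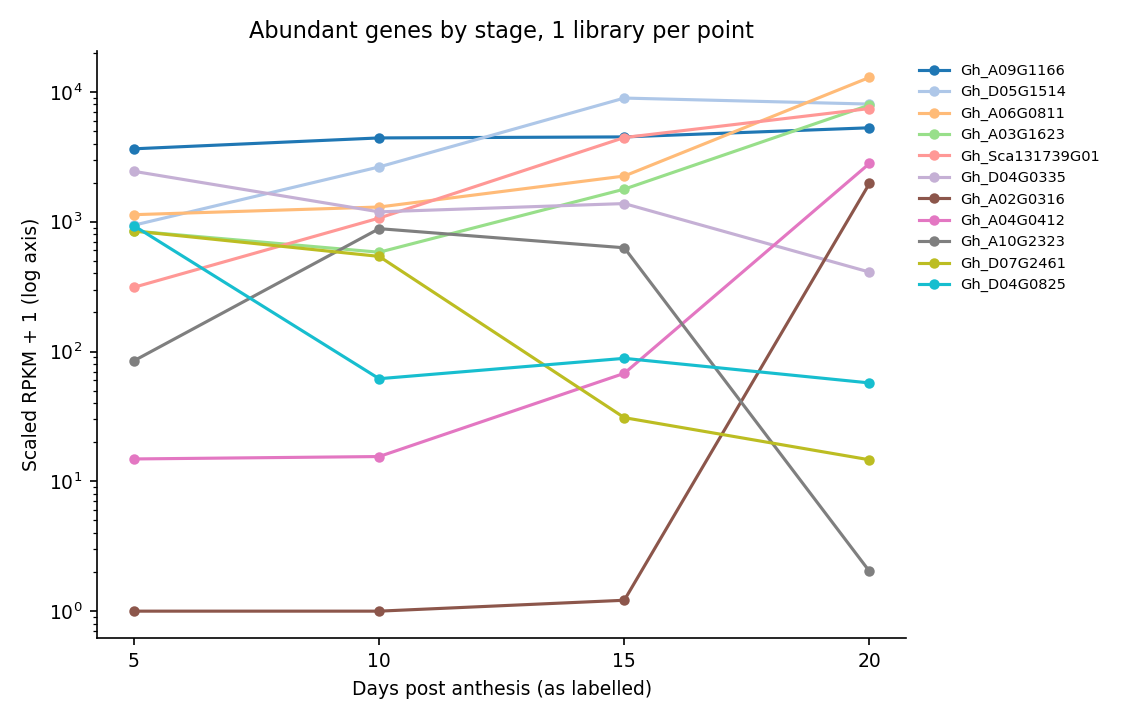
Scaled RPKM plus 1 (y axis, log axis) at each labelled stage (x axis) of 11 genes from the lists of the 20 most abundant genes of G. barbadense, 1 library per point. Gh_A09G1166 stays between 3640.4 and 5285, Gh_A06G0811 ends at 12913, and Gh_A10G2323 ends at 1.03.

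Levels of several abundant identifiers ran in parallel. Of the 39 genes, 15 stood within 0.3 on the log2 scale of at least 1 other of the 39 in every library, in 9 pairs, and 24 did not. Of these pairs 7 joined an A with a D chromosome, among them Gh_A09G1166 with Gh_D09G1172. The other 2 joined Gh_Sca222153G01 with each of those genes. How reads that match several genes were counted is not stated in the labels or notes, so the separate levels of such identifiers are uncertain. The 7 genes found in all 4 lists were Gh_A05G1347, Gh_D05G1514, Gh_A06G0811, Gh_D06G0940, Gh_A09G1166, Gh_D09G1172 and Gh_Sca222153G01. All 7 belong to such pairs.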

How the data were processed

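The deposited table holds RPKM values made by the authors, with 2 decimals, for 59006 identifiers in 8 columns, 1 library each. Per the submitters' processing notes, the tools were cutadapt, Bowtie2 and edgeR; their versions and roles, the genome build, the annotation, the strand setting and the treatment of shared reads are stated nowhere in the sources used here. Columns were matched to samples by title. Each column was divided by its sum and multiplied by 300000. The members, gene lists and measures were chosen with earlier results of these data known. Genes named are, for each step, the 2 largest rises and falls; for each stage, the 2 highest single-stage peaks and the 5 most abundant genes; and others chosen after their values were seen (lists over several stages, near-equal pairs, single gainers, losers and further abundant genes). Marker lists fixed by symbol could not be matched, so none was looked at.

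Relative depth was read from the steps of low values. In 11703 of 32739 genes with 5 or more values of at most 20 reads, each of those came to a whole number of reads, to within 0.15. The depths were 1, 0.982, 0.983 and 1.12 at 5, 10, 15 and 20 DPA. No test was run, since each stage has 1 library. The counting code was run on simulated Poisson reads with planted changes. They hold no variation between libraries beyond that of reads, so this checks the code and not the reported counts. Alternatives were the deposited scale, median-of-ratios factors (20868 genes, none at 0 in any of the 4), a pseudocount of 0.1, other filters, a 2-fold limit, and leaving out scaffold identifiers or the 20 most abundant genes. Python 3.11.15, numpy 2.4.6 and pandas 2.3.3 were used.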

Additional observations from a re-analysis of the deposited data

How the results depend on the processing

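No paired analysis was possible because each stage has 1 library and the labels carry no replicate numbers, and no library could be left out. The scaling moved most counts. As deposited, 2148 genes were higher and 428 lower from 5 to 10 DPA, 1177 lower from 10 to 15 DPA, 224 and 323 peaked at 5 and 10 DPA alone, and 4861 and 13399 were highest at 5 and 10 DPA. With median-of-ratios factors 454 were lower in the first step, 269 higher and 165 lower in the middle one and 1069 higher in the last; 176, 32, 46 and 763 had single-stage peaks at the 4 stages, and 4480, 4392 and 5605 were highest at 5, 15 and 20 DPA. A pseudocount of 0.1 gave 698 lower from 10 to 15 DPA and 883, 113 and 43 peaks at 5, 10 and 15 DPA. A mean of at least 5 scaled RPKM left 471 lower in the first step, 267 lower in the middle one, 401 higher in the last, 268, 39 and 15 peaks at 5, 10 and 15 DPA, and 2542, 2097, 1233 and 1390 genes highest at the 4 stages. Without a filter the latter were 27137, 15675, 7983 and 5419, while no other count changed, since the minimum of 5 scaled RPKM already sets them. A 2-fold limit gave 2039 higher and 2782 lower, 687 and 2041, and 1455 and 3120 in the 3 steps, and 2132, 628, 174 and 888 peaks. Under it the first step, with 4821 genes, exceeded the last, with 4575; under the other 7 alternatives the last step held the most genes. Without the 20 most abundant genes 237 were higher from 10 to 15 DPA, and 34.0%, 25.6% and 46.5% of the pool was replaced in the 3 steps; without scaffold identifiers it was 33.0% in the first and 44.0% in the last step. Of 102 alternative values 50 stayed within 1.5 times the reported count or equalled the reported share. Of the lists over several stages, the deposited scale gave 370 genes for 10 and 15 DPA and 200 for 10, 15 and 20 DPA, and median-of-ratios factors 34 for 5 and 10 DPA, 84 for 15 and 20 DPA, 728 for 5, 10 and 15 DPA and 159 for 10, 15 and 20 DPA. More lower than higher genes in the last step was found in all 8 alternatives. The smaller numbers under stricter filters follow from fewer genes tested and the larger ones under a lower limit from the limit; the cause of the other shifts was not tested. At 1 library per stage, differences between stages and between libraries cannot be told apart.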

Other observations

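Step sizes were also computed in G. hirsutum, as values only. Over all 59006 listed genes, 33.4%, 28.4% and 39.4% of the summed RPKM was replaced there in the 3 steps. In G. barbadense it was 32.9%, 26.8% and 42.9%. Among the same 20920 genes, those at least 4-fold higher and lower in G. hirsutum numbered 550 and 596 from 5 to 10 DPA. They numbered 141 and 811 from 10 to 15 DPA, and 447 and 741 from 15 to 20 DPA. The 20920 genes were filtered on their level in G. barbadense, and the difference between the species was not tested.

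The 20 most abundant genes of G. barbadense at 20 DPA included 16 of the 20 most abundant in G. hirsutum at that stage, while at 5 DPA the lists shared 7, at 10 DPA 13 and at 15 DPA 13. The 20 genes leading at 5 DPA in G. barbadense took 6.31% of the pool in G. hirsutum at that stage, against 9.98% in G. barbadense, and those leading at 20 DPA took 29.0% against 33.2%.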
